A study of Mus musculus with 26 samples.

Results

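Mouse embryonic stem cells depleted of Mettl3 were compared with cells that received a scramble control, at the 0 h point of a time course. The comparison rests on 4 of the 26 arrays of the series, 2 titled Mettl3 KD at 0 h and 2 titled scramble at 0 h, chosen by title alone. All groups were J1 cells, a mouse embryonic stem cell line, grown on irradiated mouse embryonic fibroblasts in serum with leukaemia inhibitory factor (LIF), per the labels. The labels describe lentiviral short hairpin RNA with puromycin selection and also repeated transfection of small interfering RNA (siRNA), without saying which arrays had which, so the scramble arrays could be the control of either. The rest of the time course holds scramble, Mettl3 KD and Mettl14 KD arrays at 0 h, 4 h and 8 h, which bring it to 18 arrays, and no label names an agent for those hours. A repeat set at 0 h holds 8 arrays, of which 2 Mettl3 KD arrays and 2 arrays of a scramble control of their own are used here. The series asks, by its title, whether RNA methylation bears on how long messages of developmental regulators last.

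METTL3 is the methyltransferase that adds N6-methyladenosine (m6A) to messenger RNA. METTL14 binds it and holds the RNA, WTAP and VIRMA place the complex on its targets, YTH domain proteins read the mark, and FTO and ALKBH5 remove it. In embryonic stem cells m6A is known to lie on transcripts of pluripotency regulators and of lineage regulators, and to shorten the life of many of them.

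The siRNA target sites given in the labels are shown because they define what the siRNA was aimed at. Whether the knockdown arrays compared here received it is not stated. The capitals mark bases 12 to 18 of each 19-base site, which pair with bases 2 to 8, the seed, of the siRNA's antisense strand.
Mettl3 target 1: ggactgcgatgTGATTGTa
Mettl3 target 2: gacgaattatcAATAAGCa
The sites differ in base composition, with 47.4% and 31.6% of G and C.

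Values are log2 signals of a gene's probe set from a robust multi-array average (RMA), a change is knockdown minus scramble on that scale, and ± is limma's standard error of the change. A gene passed when its limma p-value, adjusted by the Benjamini-Hochberg method over 14787 genes, was below 0.05, and "rose" and "fell" are used only of genes that passed. Across all 41345 probe sets the scramble arrays correlated with each other at r = 0.9923 and the knockdown arrays at r = 0.9902. Between a scramble and a knockdown array r was 0.9815 to 0.9855. The stem cell identity of the cultures was checked with 9 tested markers such as Nanog and Sox2. Their linear signals summed to 34360 in each scramble array and to 24550 and 24900 in the knockdown arrays. With 2 arrays a group, which the labels call biological replicates without saying what was separate, the p-values cover only the spread between such arrays, which may be technical.

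The targeted transcript was lower in both knockdown arrays. The sole probe set listed with Mettl3 is listed with Tox4 as well, and it read 11.05 and 11.03 in the scramble arrays against 9.09 and 9.20 in the knockdown arrays. The groups were far apart, and the change was -1.89 ± 0.11, to 26.9% of scramble (limma adjusted p = 1.27e-06 over every probe set). A probe set for Tox4 alone, an HMG box protein gene, read 9.30 and 9.41 against 9.37 and 9.53 and did not pass, at 0.10 ± 0.07 (limma adjusted p = 0.497 over every probe set). Its groups overlapped, so the drop was seen where Mettl3 probes contribute. The same shared probe set stood at 15.9% of scramble at 4 h, at 16% at 8 h and at 23.6% in the repeat set.

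The other subunits of the writer complex moved little. Mettl14 read 9.08 and 9.10 in scramble and 8.997 and 8.994 in the knockdown, a change of -0.10 ± 0.14 that did not pass (limma adjusted p = 0.766 over every probe set, and 0.613 over the 14787 genes). Wtap read 9.50 and 9.41 against 9.47 and 9.39, and its groups overlapped, whereas at 4 h and 8 h it stood 0.25 and 0.71 above scramble. Of 16 tested genes of the m6A machinery 4 rose and 1 fell, with a median change of 0.04 beside 0.003 over all genes, and the higher count was 2 without knockdown replicate 1 or without scramble replicate 2. The largest rise was that of Igf2bp3, a reader that is known to stabilise its targets. Igf2bp3 went from 9.54 and 9.58 to 10.67 and 10.76, by 1.16 ± 0.05 (limma adjusted p = 3.35e-09). The nuclear reader Ythdc1 rose by 0.34 ± 0.04, the scaffold Virma by 0.18 ± 0.05 and the demethylase Alkbh5 by 0.16 ± 0.06. The methyltransferase Mettl16 fell by 0.15. The calls of Virma, Alkbh5 and Mettl16 were lost in 5, 9 and 8 of 15 other settings. Over all genes 19.3% were higher and 18.6% lower, so the counts of this list, 4 and 1 of 16, lay near or below those shares.

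**Figure D1:**
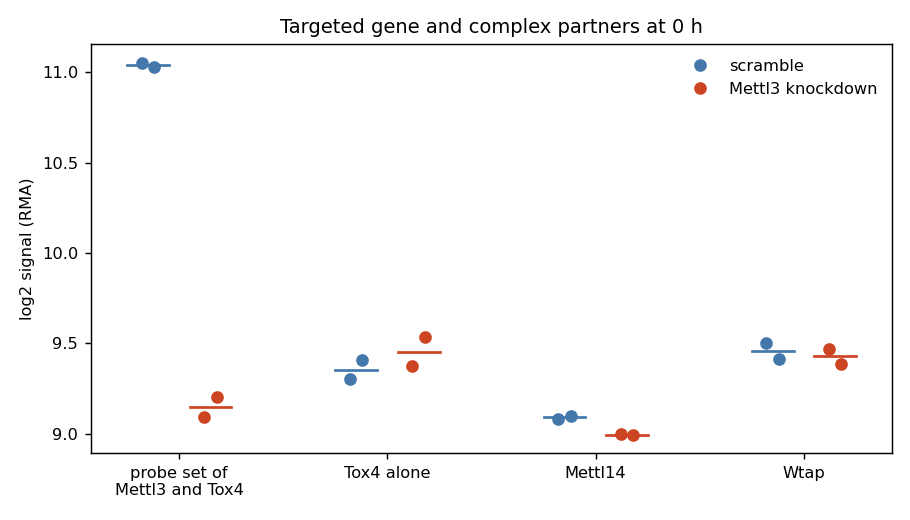
Log2 RMA signal (vertical axis) in each of the 4 arrays for the probe set listed with both Mettl3 and Tox4, a probe set of Tox4 alone, Mettl14 and Wtap; points are arrays and short lines are means of 2. Only the shared probe set separates the groups widely, with scramble at 11.03 to 11.05 and knockdown at 9.09 to 9.20.

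Over all genes 2850 were higher after Mettl3 knockdown, 19.3% of those tested, and 2744 were lower, 18.6%, or 37.8% in either direction. The counts of gene lists are to be read beside these shares. Large changes leaned upward: 323 genes (2.18%) were at least 2-fold higher and 120 (0.812%) at least 2-fold lower. At 2 log2 units or more the counts were 36 higher and 7 lower, whereas below 0.5 log2 units there were 1715 higher and 2029 lower. The balance of small calls depended on the scaling. With each array centred on the median signal of 28 long-lived transcripts the median of all genes moved to -0.11. The counts moved to 1823 higher and 4543 lower, so that 28.6% of calls were higher against 50.9% with the values as deposited. The 28 were not all unchanged, since with those deposited values 6 rose and 4 fell. Their changes ran from -0.60 to 1.35, with a median of 0.03. The centring thus moved all genes by more than the median change of the list. Under a second quantile normalisation the counts were 2756 higher and 3045 lower. Knockdown arrays lay wholly on one side of the scramble arrays for 10173 genes, 68.8% of all, so a lack of overlap alone says little with 2 arrays a group.

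**Figure D2:**
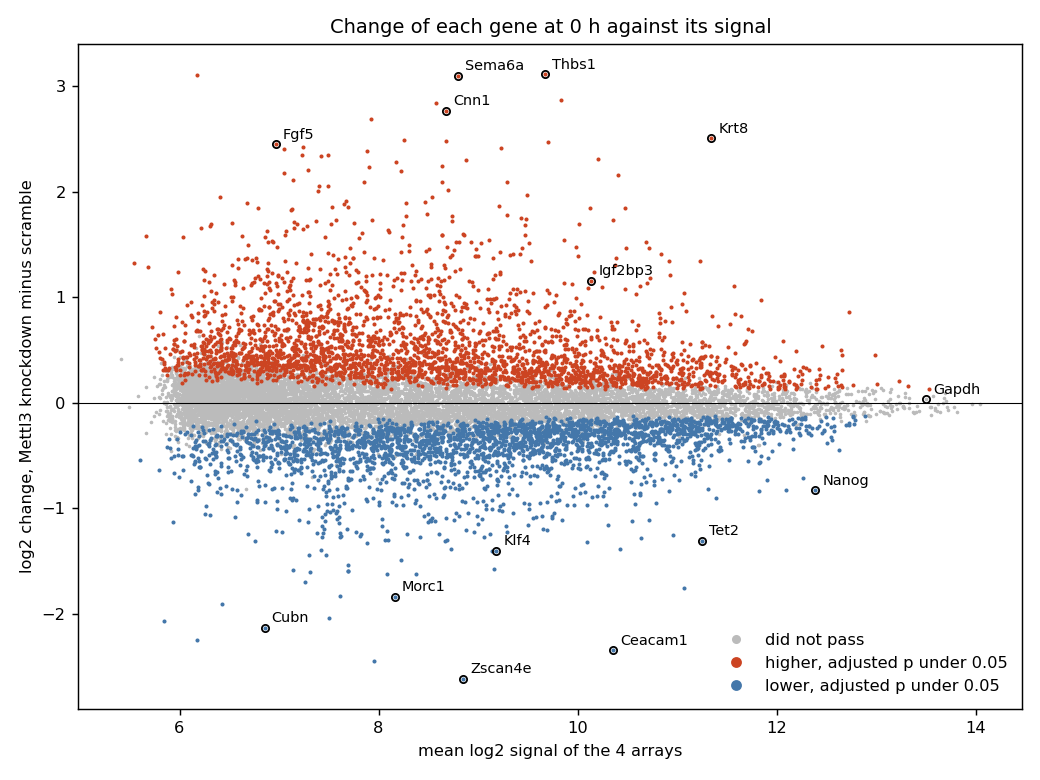
Change of every gene tested at 0 h (vertical axis, log2, Mettl3 knockdown minus scramble) against its mean log2 signal over the 4 arrays (horizontal axis); 1 point is 1 gene, coloured where limma's adjusted p was below 0.05. The widest changes point upward, 36 genes rising by 2 log2 units or more against 7 that fell as far.

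The 12 largest rises were of mixed kinds. Thbs1 encodes thrombospondin 1, a matrix glycoprotein. It read 8.26 and 7.97 in scramble and 11.17 and 11.28 in the knockdown, an 8.65-fold rise (3.11 ± 0.09, limma adjusted p = 4.52e-10). Sema6a, a transmembrane semaphorin that guides axons, went from 7.31 and 7.20 to 10.42 and 10.27 (3.10 ± 0.09). The dim leukotriene receptor gene Cysltr1 went from 4.42 and 4.84 to 7.56 and 7.91 (3.10 ± 0.17). Each of these had its knockdown arrays over 2 log2 units above its scramble arrays. The size and rank of the Cysltr1 change are uncertain, because its scramble mean of 4.63 lies below 6, the lowest mean over all arrays of any gene tested. The same holds for the sizes given for Fgf5, Nefm, Bmp2, Irs1 and Tfap2a, whose scramble means are below 6, and for Cubn, Klk1 and Srgn, whose knockdown means are. Anxa3, a calcium-dependent membrane-binding annexin, went from 8.45 and 8.35 to 11.30 and 11.24 (2.87 ± 0.07). Wls, the carrier that brings Wnt proteins to the cell surface, went from 6.69 and 6.47 to 9.14 and 9.39 (2.69 ± 0.10). Fgf5, the growth factor that marks the epiblast after implantation, went from 5.86 and 5.62 to 8.18 and 8.21 (2.45 ± 0.12). The other members of the 12 largest rises were Fndc3c1 (2.84 ± 0.05), the scavenger receptor Colec12 (2.49 ± 0.10), and Cnn1, Krt8, Nefl and Tagln, which are described with their groups.

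The 12 largest falls were of mixed kinds. Zscan4e, of the telomere-associated family that marks rare two-cell-like cells, read 10.13 and 10.18 in scramble and 7.68 and 7.41 in the knockdown (-2.61 ± 0.18, limma adjusted p = 3.34e-07). Ceacam1, an adhesion molecule of the immunoglobulin family, went from 11.50 and 11.57 to 9.23 and 9.15 (-2.34 ± 0.09). Cubn, which encodes the endocytic receptor cubilin, went from 7.91 and 7.92 to 5.75 and 5.84 (-2.13 ± 0.11). In all of these the pairs of arrays lay within 0.3 log2 units of each other. Morc1, a germline silencing factor for transposons, went from 9.11 and 9.05 to 7.15 and 7.34 (-1.84 ± 0.15). Mep1b, a subunit of the membrane protease meprin, went from 8.46 and 8.59 to 6.71 and 6.67 (-1.83 ± 0.12). The remaining members of the 12 largest falls were Zscan4b (-2.44 ± 0.25), Zscan4c (-2.03 ± 0.24), the kallikrein Klk1 (-2.07 ± 0.29), the proteoglycan Srgn (-1.90 ± 0.27), Pramel19 (-1.70 ± 0.25), the kinase Prkch (-1.60 ± 0.09) and the small RNA Scarna6. Scarna6 changed by -1.75 ± 0.62 with an adjusted p of 0.0411 and lost its call in several other settings.

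**Figure D3:**
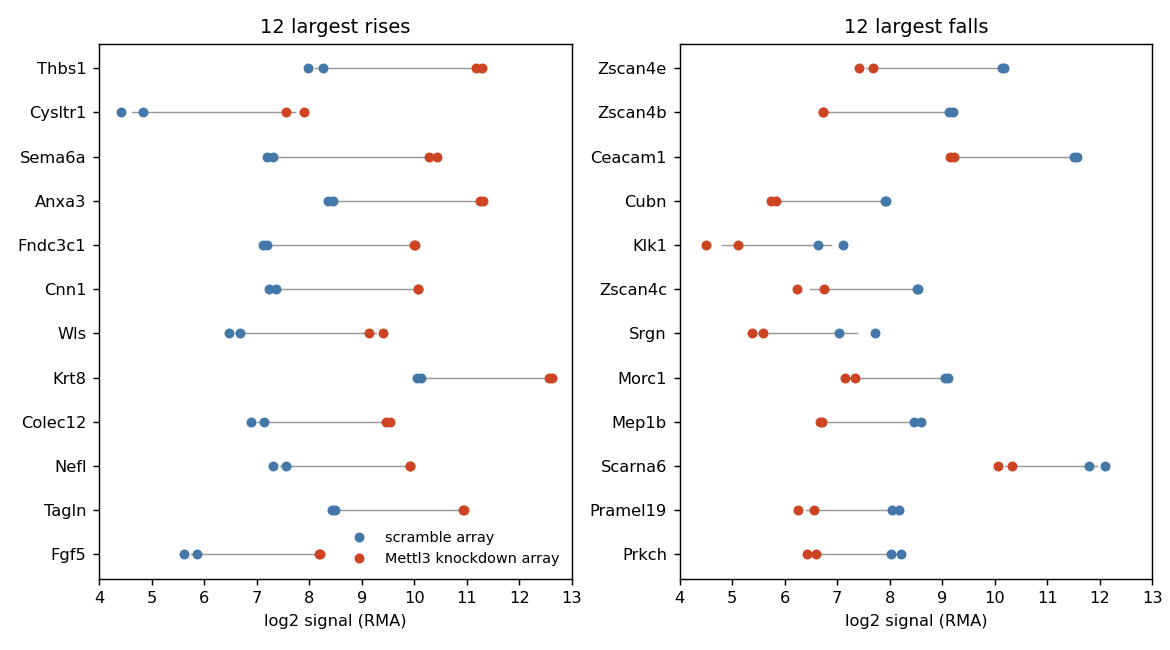
Log2 RMA signal (horizontal axis) of the 12 genes with the largest rises (left) and the 12 with the largest falls (right); each point is 1 array, blue for scramble and red for Mettl3 knockdown, and grey lines join group means. In none of the 24 genes do the arrays of the groups overlap, which the choice of these genes required.

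Transcripts of the naive pluripotency network fell together. This network holds the ground state of embryonic stem cells, and all 20 tested genes of its 23-gene list fell, with a median of -0.88. Changes ran from -0.26 for Klf5, which encodes a self-renewal factor, to -1.40 for Klf4, and 8 of the 20 fell at least 2-fold. Klf4 read 9.83 and 9.93 in scramble and 8.53 and 8.43 in the knockdown (-1.40 ± 0.10, limma adjusted p = 3.74e-07). Esrrb, an orphan nuclear receptor of the network, went from 8.62 and 8.56 to 7.46 and 7.53 (-1.09 ± 0.08). Both were well clear of the control. The falls of Tbx3 (-1.17), Prdm14 (-1.19) and Klf2 (-1.08), all naive transcription factors, were of like size. Among markers rather than regulators, the adhesion molecule Jam2 fell by 1.25, the kinase cofactor Tcl1 by 1.31, and Dppa3, a maternal factor, by 1.12. Fewer cells of a type and less RNA per cell cannot be told apart in these bulk samples. In the repeat set 19 of the 20 were lower, with or without scramble replicate 2 of that set, and Dppa3 was the exception at -0.17.

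Core pluripotency factors fell as well. Of 13 tested genes 10 fell and 1 rose, with a median of -0.26. Nanog, the homeobox factor that sustains self-renewal, went from 12.82 and 12.78 to 11.96 and 11.99 (-0.82 ± 0.05, limma adjusted p = 7.18e-08). Pou5f1, which encodes Oct4, went from 9.40 and 9.28 to 8.81 and 8.67 (-0.60 ± 0.11), and Zfp42, also called Rex1, from 12.21 and 12.33 to 11.54 and 11.53 (-0.73 ± 0.06). Sox2 stayed close to its control, at 12.50 and 12.49 against 12.15 and 12.24, and its call (-0.30 ± 0.10, limma adjusted p = 0.0253) was lost without knockdown replicate 1, without scramble replicate 1 or without scramble replicate 2. Lin28a, an RNA-binding protein gene, was the riser, at 0.24, while Sall4 and Utf1 did not pass at 0.01 and -0.01.

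The LIF receptor pathway feeds the naive network through Stat3. Of 15 tested genes 8 fell and 3 rose, with a median of -0.27: receptors and kinases counted 3 higher and 3 lower of 7, and the factor and its targets 5 lower of 8. Over the list, without knockdown replicate 2 or scramble replicate 1 only 1 rose. Stat3 itself read 11.29 and 11.23 in scramble against 10.36 and 10.27 (-0.95 ± 0.05, limma adjusted p = 6.95e-08). Its feedback inhibitor Socs3 went from 9.59 and 9.83 to 8.75 and 8.65 (-1.01 ± 0.08), and Bcl3, another Stat3 target, from 10.30 and 10.28 to 9.27 and 9.22 (-1.04 ± 0.08). Those 3 fell by about the same amount. The receptor chain Lifr fell by 0.88 and the shared chain Il6st by 0.27, while the kinases Jak2 and Jak1 rose by 0.81 and 0.17 and the ligand Lif by 0.44.

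Markers of the primed epiblast, the state that follows the naive one, rose in 8 of 14 tested genes and fell in 1, with a median of 0.54. Beside Fgf5, the POU factor Pou3f1 went from 7.79 and 7.89 to 9.48 and 9.38 (1.59 ± 0.09, limma adjusted p = 5.73e-08). The zinc finger factor Zic2 went from 8.44 and 8.29 to 9.57 and 9.45 (1.14 ± 0.07). The homeobox gene Otx2 rose by 1.02, Lef1, a nuclear effector of Wnt signalling, by 0.89, and the methyltransferase Dnmt3b by 0.38. The knockdown arrays stood above the scramble arrays for each of them. Not all epiblast genes took part, since Nodal (0.19), Foxd3 (-0.01) and Sox3 (-0.002) did not pass and the methyltransferase Dnmt3a fell by 0.59.

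Keratins and junction genes of simple epithelium rose, with Ceacam1 as the exception. The list had 17 tested genes, of which 16 rose and 1 fell, with a median of 0.56. Krt8 and Krt18 encode the keratin pair of simple epithelial filaments. Krt8 read 10.05 and 10.12 in scramble and 12.63 and 12.56 in the knockdown, a 5.69-fold rise (2.51 ± 0.05, limma adjusted p = 9.96e-12). Krt18 went from 9.08 and 9.02 to 11.38 and 11.34 (2.31 ± 0.05). Both rose by similar factors from different levels of signal, and Krt19 (2.20) and Krt7 (0.56) rose too, so that the 4 tested keratins had a median of 2.25. The desmosome linker Dsp went from 7.91 and 7.55 to 10.03 and 10.03 (2.30 ± 0.09). The tight junction claudin Cldn6 went from 9.19 and 9.21 to 10.99 and 11.11 (1.85 ± 0.05), and Cldn7 (1.48), Ocln (1.44) and Cldn4 (1.09) rose as well. Cdh1, which encodes the E-cadherin that stem cells carry as well, rose by 0.45.

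Of 26 genes of actin stress fibres and their attachment to the membrane 21 rose and 1 fell. Their median was 0.88, and 12 of them rose at least 2-fold. Cnn1, smooth muscle calponin, read 7.23 and 7.36 in scramble and 10.06 and 10.07 in the knockdown (2.77 ± 0.06, limma adjusted p = 1.91e-11). Tagln, which encodes the actin-bundling transgelin, went from 8.44 and 8.49 to 10.92 and 10.95 (2.47 ± 0.07). Vcl, the vinculin of focal adhesions, went from 10.33 and 10.32 to 11.55 and 11.52 (1.21 ± 0.05). Replicates of these genes lay within 0.2 log2 units. Among contractile and linker genes 17 of 18 rose, tropomyosin Tpm1 by 1.46 ± 0.05, filamin Flnc by 1.60 ± 0.07 and the myosin light chain Myl9 by 1.51. Among smooth muscle genes the order was uneven, since Acta2 rose by 1.05 while Actg2 (0.20), Myh11 (0.12) and Lmod1 (0.03) did not pass and desmin (Des) fell by 0.36.

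Transcripts known as targets of YAP and TEAD, a coactivator and its transcription factor in the Hippo pathway, rose in 14 of 15 tested cases. None fell, and the median was 0.83. Of the 6 effectors on the same list 3 rose and none fell, with a median of 0.28. After Thbs1 the largest was Ccn1, a matrix-associated growth regulator, which went from 9.48 and 9.18 to 11.40 and 11.57 (2.16 ± 0.09, limma adjusted p = 6e-09). The receptor tyrosine kinase Axl went from 7.13 and 7.41 to 8.93 and 8.89 (1.64 ± 0.10), and Ccn2 from 9.52 and 9.57 to 10.73 and 10.84 (1.24 ± 0.08). All 3 pairs of knockdown arrays lay above their controls by over 1 log2 unit. The Ccn2 change was as low as 0.64 in another setting, though it kept its call. The feedback kinase Lats2 rose by 1.14 and the scaffolds Amotl1 and Amotl2 by 1.11 and 0.83. Of the effectors, Wwtr1 (TAZ) rose by 0.82 and Tead3 by 0.96, while Yap1 did not pass at -0.04.

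Promoters of these groups are shown because their members moved together. The windows were the 250 bases before each RefSeq start on GRCm38.p6, matched for 11545 tested genes. Both strands were searched for the CArG box of serum response factor and for GGAATG, a core letter string of TEAD sites. The AP-1 site was searched as TGACTCA or TGAGTCA. A CArG box stood in 1.47% of all windows, in 5 of 22 for the actin list (22.7%) and in 3.21% of the 249 windows of genes at least 2-fold higher. The stretches below carry it in capitals, at 227 bases before the start in Vcl, 161 in Myl9, and 82 and 62 in Srf, which encodes serum response factor itself.
Vcl, chr14:20929151-20929200, plus strand: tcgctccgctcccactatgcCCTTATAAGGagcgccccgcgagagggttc
Myl9, chr2:156775283-156775332, plus strand: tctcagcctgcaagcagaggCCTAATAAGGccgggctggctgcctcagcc
Srf, chr17:46556195-46556264, minus strand: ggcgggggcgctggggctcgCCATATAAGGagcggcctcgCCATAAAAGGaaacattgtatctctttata
GGAATG or its complement CATTCC stood in 12.9% of all windows, in 9 of 15 for the YAP list (60%), and in 17.7% of the windows of genes at least 2-fold higher against 4.35% of the 92 windows of genes at least 2-fold lower. In capitals it lies 103 bases before the start of Ccn1, 233 before that of Axl and 65 before that of Amotl2.
Ccn1, chr3:145650063-145650108, minus strand: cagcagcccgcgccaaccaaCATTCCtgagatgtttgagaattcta
Axl, chr7:25788941-25788983, minus strand: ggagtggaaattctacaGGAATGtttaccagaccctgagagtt
Amotl2, chr9:102717719-102717764, plus strand: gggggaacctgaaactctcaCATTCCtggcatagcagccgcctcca
GGAATG also stood in 7 of 22 windows of the actin list (31.8%), and the CArG box in 2 of 18 of the immediate early list (11.1%) and 0 of 15 of the YAP list. TGACTCA or TGAGTCA stood in 3.98% of all windows. The share was 8.03% for genes at least 2-fold higher and 3.26% for those at least 2-fold lower. For the actin list it was 1 of 22. None of the 18 immediate early and 15 YAP list windows held either string. A match describes the letters only. Shares of a list depend on its make-up, not on the knockdown. The YAP list was drawn from known targets and effectors of YAP and TEAD, and the actin list holds Srf itself. Yap1 and Ankrd1, whose windows hold the string, did not pass, and the windows of Cnn2 and Fhl2, which rose, hold a CArG box.

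The matrix and its receptors changed in both directions. Integrin chains, which bind matrix, rose in 7 of 14 tested cases and fell in 4. Itgav rose by 1.12 ± 0.05, Itga3 by 1.04 ± 0.05, Itga8 by 1.37 ± 0.08 and the common chain Itgb1 by 0.58 ± 0.05. The Itgav change was as low as 0.75 in another setting, though it kept its call. Itgb7 and Itga9 fell by 0.80 and 0.73. Of 16 basement membrane genes 10 rose and 5 fell, and the fallers numbered 3 without knockdown replicate 2 or without either scramble array. Col4a1, a collagen IV chain, went from 7.09 and 7.32 to 8.39 and 8.28 (1.13 ± 0.07), while Lama1, the laminin chain of the early embryo, went from 9.60 and 9.57 to 8.41 and 8.57 (-1.10 ± 0.08). Annexins and S100 proteins, some of which pair at the membrane, rose in 11 of 13 cases and fell in none. Among them Anxa2 rose by 1.95 ± 0.06, Anxa5 by 1.97 ± 0.08 and S100a10, the partner of annexin A2, by 0.86 ± 0.06.

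Feeder fibroblasts share actin, matrix and YAP target genes, so their markers are given beside those groups. Of 24 fibroblast markers 19 were tested, of which 7 rose and 1 fell. Their linear signals summed to 2464 and 2489 in scramble and to 3965 and 3833 in the knockdown. The largest rises among them were those of Mmp2, a matrix metalloproteinase, by 1.41 ± 0.08, and Fstl1, a secreted glycoprotein, by 1.25 ± 0.05. The collagens that fibroblasts make in bulk moved less, since Col1a1 rose by 0.40 ± 0.09 and Col5a1 by 0.65 ± 0.12 while Col1a2 (0.13), Col3a1 (-0.12) and the other collagens did not pass. No marker is at 0 on an array, and the lowest read 5.63 in scramble. The part of fibroblast RNA in the rises of actin, matrix and YAP target genes was not tested.

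Insulin-like growth factor genes, which act on growth and survival, were higher in 10 of 15 tested cases and lower in none, with a median of 0.47. Igfbp3, a secreted binding protein, read 9.67 and 9.44 in scramble and 11.36 and 11.44 in the knockdown (1.85 ± 0.08, limma adjusted p = 4.83e-09). The receptor adaptor Irs2 went from 8.21 and 8.28 to 10.34 and 10.34 (2.09 ± 0.12), and Irs1 rose by 1.28. All pairs of knockdown arrays were above the controls. The receptors Igf1r (0.82 ± 0.07) and Insr (0.68 ± 0.07) and the ligand Igf2 (0.67) rose too. Igfbp2 rose by 0.70 ± 0.06, while Igf1 (0.03) and the clearance receptor Igf2r (0.09) did not pass.

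Wnt pathway genes rose in 22 of 40 tested cases and fell in 4, with a median of 0.32. Ligands led by Wnt3 (6.07 and 6.08 to 7.60 and 7.69, 1.57 ± 0.09) and Wnt4 (1.21 ± 0.10) rose with Wls, whereas Porcn, the enzyme that acylates Wnt proteins before Wls carries them, went from 10.27 and 10.30 to 9.20 and 9.19 (-1.09 ± 0.06). Steps that act in sequence on the same ligands thus moved in opposite directions. Receptors rose in 9 of 11 cases and Fzd5 fell by 1.22. Of targets, Axin2, a standard readout of beta-catenin activity, did not pass at -0.08, and Sp5 rose by 0.38.

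BMP and Id genes rose in 13 of 20 tested cases and fell in 2. The ligands went apart, since Bmp4 fell from 11.28 and 11.27 to 9.94 and 10.06 (-1.28 ± 0.13) and Bmp2 rose from 5.65 and 5.78 to 6.71 and 7.02 (1.15 ± 0.13). The Id inhibitors of differentiation, BMP targets, rose by 0.52 ± 0.06 (Id1), 0.84 ± 0.06 (Id2) and 0.60 (Id3), and the inhibitor Smad6 fell by 0.65. In the Nodal and TGF-beta list 11 of 25 rose and 2 fell. The ligand Tgfb2 rose by 1.19 ± 0.11, the Nodal antagonist Lefty2 from 7.98 and 7.62 to 8.92 and 8.86 (1.09 ± 0.10), and the effector Smad3 by 0.75 ± 0.08, while the activin subunit Inhbb fell by 1.26. FGF and ERK genes were even, with 7 higher and 7 lower of 22. The ERK phosphatases Dusp4 (1.17 ± 0.09), Dusp5 (0.97 ± 0.08) and Dusp6 (0.82) rose, but other feedback genes, Etv4 (-0.69), Spred2 (-0.28) and Spry2 (-0.24), fell. The naive ligand Fgf4 fell by 0.78.

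Immediate early genes are transcribed soon after a signal and have short-lived messages. Of 24 tested, 14 rose and 1 fell. Jun, an AP-1 subunit, went from 8.08 and 8.05 to 9.59 and 9.71 (1.59 ± 0.09, limma adjusted p = 8.7e-08), and Fosl2 from 7.34 and 7.40 to 8.78 and 8.66 (1.35 ± 0.10). Egr1 rose by 0.82, Dusp1 by 0.93 ± 0.08 and Ier3 by 1.03 ± 0.06. Short-lived messages did not all move so, as Myc changed by -0.25 ± 0.14 and did not pass (limma adjusted p = 0.185), Fos did not pass at 0.36 and Zfp36l1 fell by 0.28. At 4 h the rise over scramble was 0.39 for Jun, -0.07 for Ier3 and 0.43 for Ccn1, against 1.59, 1.03 and 2.16 at 0 h. The change between time points was not tested.

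Lists of the early lineages held calls in both directions, beside 19.3% of all genes higher and 18.6% lower. Counts of the mesoderm list lay near or below these shares. In the trophoblast list 9 of 18 rose and 1 fell: Id2 and Tfap2a (0.65) rose, Tfap2c, which naive cells use as well, fell by 1.20 ± 0.12, and Cdx2 and Gata3 did not pass at 0.28 and 0.33. In the mesoderm list 4 of 16 rose, which became 2 without either scramble array, and 1 fell. Eomes (0.38 ± 0.11), Msx2 (0.52 ± 0.15) and Foxf1 (0.34 ± 0.10) were the regulators among them, and each lost its call in another setting. In the endoderm list 10 of 20 rose and 2 fell, with 5 or 6 rising when knockdown replicate 2 or either scramble array was left out. The receptor Lrp2, megalin, went from 9.09 and 9.10 to 10.67 and 10.60 (1.54 ± 0.05), the opposite of its partner Cubn. Gata4, Sox17, Sox7, Hnf4a and Hhex, regulators of endoderm, did not pass. Of 19 Hox genes 1 rose.

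Neural genes did not move one way. Of 21 tested 7 rose and 6 fell, with a median of -0.002, and both kinds on the list were mixed, progenitor genes with 3 higher and 2 lower of 11 and neuron genes with 4 higher and 4 lower of 10. Nefl, neurofilament light chain, went from 7.55 and 7.32 to 9.91 and 9.92 (2.48 ± 0.08, limma adjusted p = 6.85e-10) and Nes, nestin, from 7.05 and 7.02 to 9.28 and 9.36 (2.28 ± 0.07). The transcription factor gene Sox11 rose by 1.14 ± 0.08, and Nefm, a neurofilament gene dim in scramble, by 1.33 ± 0.09. Stmn2, a microtubule regulator of growing neurites, fell from 12.23 and 12.25 to 11.46 and 11.36 (-0.83 ± 0.05), and Tubb3 (-0.55), Ncam1 (-0.67), Sox1 (-0.52) and Pax6 (-0.49) fell too. Axon guidance genes leaned upward, 19 of 31 rising and 1 falling, among them the semaphorin Sema3c (6.07 and 6.05 to 8.38 and 8.43, 2.34 ± 0.08) and the ephrin Efna5 (2.21), and Epha4 fell by 0.95.

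Most germline transcripts tested fell. Of 23 tested germline genes 17 fell and none rose, with a median of -0.60. After Morc1 came Sohlh2, a germ cell transcription factor, from 8.16 and 8.07 to 6.68 and 6.76 (-1.40 ± 0.09, limma adjusted p = 1.37e-07). Piwi pathway genes followed, with Piwil2 at -1.30, Mov10l1 at -1.23 ± 0.11, Mael at -1.22 and Tdrd12 at -0.81 ± 0.07. Of 8 tested two-cell-like genes the 4 Zscan4 members fell, and Arg2, Sp110, Usp17le and Zfp352 did not pass, at -0.13 to -0.26. Probes of Zscan4 copies can bind each other's RNA, so changes of single members are uncertain.

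Chromatin genes changed in part. PRC2, the Polycomb complex that trimethylates histone H3, lost transcripts of 8 of its 11 tested subunits, and none rose. The core subunit Eed went from 11.53 and 11.49 to 10.88 and 10.83 (-0.65 ± 0.04, limma adjusted p = 2.99e-07), the catalytic Ezh2 from 11.83 and 11.91 to 11.44 and 11.46 (-0.42 ± 0.05), and the accessory Phf19 from 8.10 and 8.04 to 6.62 and 6.98 (-1.27 ± 0.15). Of 14 PRC1 genes 2 rose and 1 fell. The TET enzymes, which oxidise methylated cytosine, went apart. Tet2 fell from 11.89 and 11.91 to 10.62 and 10.56 (-1.31 ± 0.11) and Tet1 from 12.61 and 12.64 to 11.92 and 11.90 (-0.71 ± 0.04), whereas Tet3 rose from 7.70 and 7.63 to 8.47 and 8.64 (0.89 ± 0.08). Of the methyltransferases Dnmt3b rose, Dnmt3a and Dnmt3l (-0.19) fell, and Dnmt1 did not pass at -0.07.

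Mitosis genes were lower by small amounts. Of 30 mitosis genes 20 fell and none rose, with a median of -0.22 and 13 falling when the spread was taken from the 4 arrays alone. Ndc80, a kinetochore protein gene, went from 11.43 and 11.38 to 10.92 and 10.88 (-0.50 ± 0.05). Bub1b fell by 0.43 and Top2a by 0.33, while Cdk1 did not pass at -0.06. Of 37 DNA replication genes 11 fell and 2 rose, with a median of -0.10, and 6 or 7 fell without scramble replicate 1 or 2. The polymerase subunit Pold1 fell by 0.45. Messages of the translation and energy machinery stayed near the median of all genes, at -0.03 for 64 ribosomal protein genes (4 higher, 6 lower), -0.07 for 70 oxidative phosphorylation genes (6 higher, 14 lower) and -0.05 for 40 proteasome genes (2 higher, 6 lower). The lower counts became 20, 37 and 21 with the arrays centred on long-lived transcripts, so these groups have no settled count of falls. The changes of Actb (0.16 ± 0.08) and Gapdh (0.04 ± 0.04) missed the threshold, and Gapdh changed sign to -0.08 under that centring.

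Of 32 genes of the mRNA decay machinery 8 fell (25%, beside 18.6% of all genes) and 3 rose, with a median of -0.04, and with 14 falling when the arrays were centred on long-lived transcripts. Cnot10, of the CCR4-NOT deadenylase, fell by 0.47 ± 0.05, and the decapping enzyme Dcp2 by 0.36 ± 0.05, while Xrn1, the main cytoplasmic exonuclease, did not pass at 0.16. Of 25 apoptosis genes 9 rose and 1 fell, with 5 rising without scramble replicate 2. Casp8, an initiator caspase, stood out: it went from 8.05 and 7.99 to 10.37 and 10.49 (2.41 ± 0.08, limma adjusted p = 9.98e-10).

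Several housekeeping and stress responses had no common direction, beside 19.3% of all genes higher and 18.6% lower. Of 24 glycolysis and hypoxia genes 7 rose (4 under the same centring) and 6 fell: the lactate exporter Slc16a3 rose by 1.08 ± 0.06, while the kinase Pdk1, a hypoxia target, fell by 0.62. Of 11 interferon response genes 4 rose and 4 fell, with 2 falling without scramble replicate 1. Among them B2m, the light chain of major histocompatibility class I, went from 10.63 and 10.48 to 11.89 and 11.92 (1.35 ± 0.07), Irf1 rose by 0.81 and Irf9 fell by 0.65. NRF2 targets counted 3 higher and 3 lower of 9, with the malic enzyme gene Me1 at 0.93 and sulfiredoxin (Srxn1) at -0.59. The unfolded protein response counted 3 and 3 of 16, and the histone genes 2 lower and none higher of 19.

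**Figure D4:**
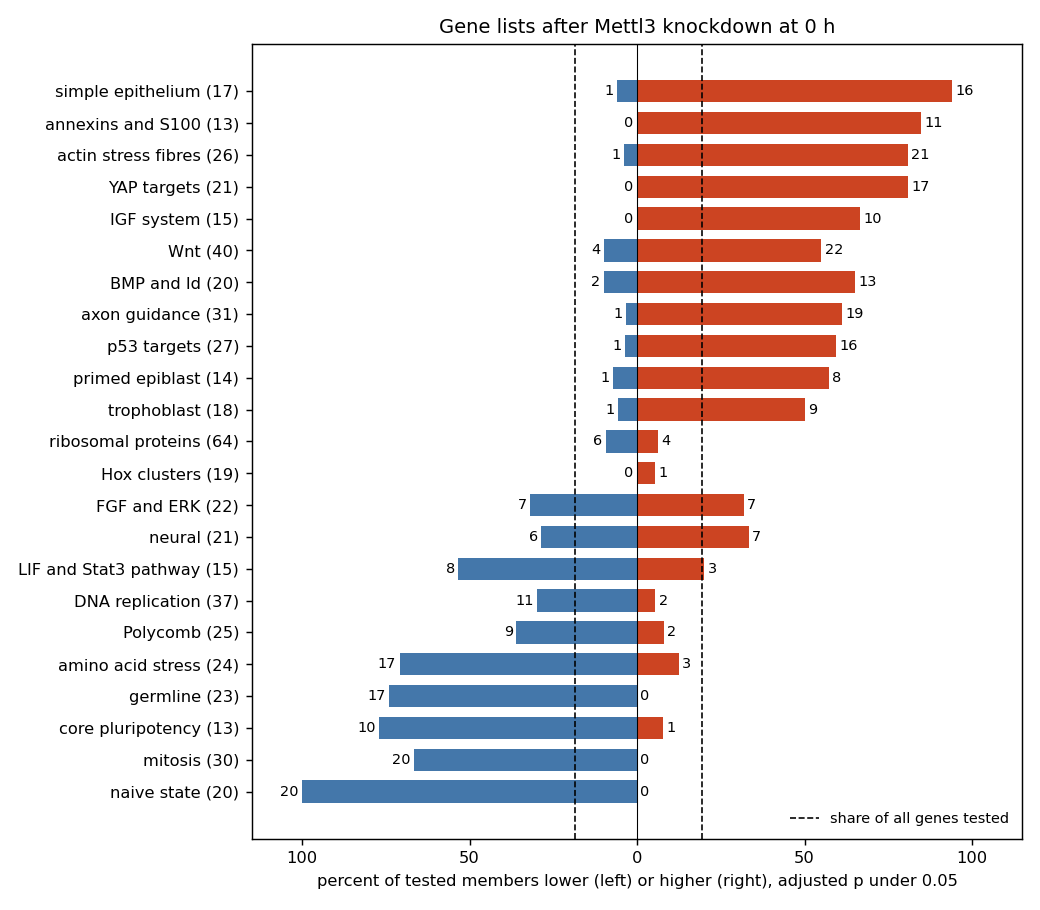
Percent of the tested members of 23 gene lists that were lower (left, blue) or higher (right, red) after Mettl3 knockdown at 0 h, with limma's adjusted p below 0.05; numbers beside the bars are counts, numbers in brackets the tested members, and dashed lines the shares over all genes, 18.6% lower and 19.3% higher. Naive state genes lie wholly to the left and simple epithelium, annexin and actin genes mostly to the right.

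Targets of p53 and of the amino acid stress factor ATF4 also moved, and they did not move the same way in the repeat set. Of 27 tested p53 targets 16 rose and 1 fell at 0 h of the time course, with a median of 0.41. Cdkn1a, the cell cycle inhibitor p21, went from 10.27 and 10.23 to 11.52 and 11.67 (1.35 ± 0.11, limma adjusted p = 2.02e-06), and the kinase Plk2 from 8.73 and 8.68 to 10.01 and 10.35 (1.47 ± 0.10). Trp53inp1 went from 10.65 and 10.66 to 11.54 and 11.51 (0.87 ± 0.05). These genes stood clear of the control here, but in the repeat set Cdkn1a (-0.04) and Plk2 (0.06) did not pass and Trp53inp1 fell by 0.37. There 4 p53 targets were higher and 12 lower (2 and 8 without scramble replicate 2 of that set), and in the test of the difference itself 20 of the 27 had a higher change in the time course (19 without that array), beside 6.15% of all genes.

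Of 24 amino acid stress genes 17 fell and 3 rose, and the median was -0.45. Gpt2, alanine aminotransferase, went from 10.34 and 10.26 to 9.03 and 9.16 (-1.21 ± 0.07, limma adjusted p = 6.6e-08), and the cationic amino acid transporter Slc7a1 from 9.72 and 9.80 to 8.67 and 8.79 (-1.02 ± 0.06). Atf4 fell by 0.73, the stress kinase homologue Trib3 by 1.30 and the serine pathway enzymes Psph and Shmt2 by 0.80 and 0.57. In the repeat set Gpt2, Slc7a1 and Shmt2 did not pass, at -0.05, -0.07 and -0.02. There 4 of the 24 were higher and 2 lower (2 and 1 without scramble replicate 2), and 14 had a lower change in the time course by the test of the difference (13 without it), beside 3.66% of all genes. Cholesterol synthesis genes showed the difference from the other side, with 5 higher and 4 lower of 17 here against 14 higher and none lower in the repeat set (13 and none without that array). Pmvk, phosphomevalonate kinase, fell by 0.62 ± 0.10 here and was 0.45 above its control there.

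The calls of the sets overlapped in part. Scramble replicate 2 of the repeat set carries a description of 4 h while its other labels say 0 h, so values are given with and without it. Of the 2850 genes higher here 1762 were higher there, 61.8% of these and 66.7% of the 2642 (17.9% of all) higher in the repeat set, and 57 were lower. Of the 2744 lower genes 1624 were lower there as well, 59.2% of these and 63.2% of the 2571 (17.4% of all). Without the doubtful array the shared counts were 1380 and 1204, or 48.4% and 43.9% of the calls here. Of the 323 genes at least 2-fold higher, 304 were also higher in the repeat set (286 without the array), with medians of 1.31 here and 0.76 there. A larger median here is partly fixed by choosing genes for their change here. The 120 genes at least 2-fold lower had medians of -1.20 and -0.89, and 114 were lower in both (112 without the array). Mep1b was the one of the 24 largest changes without a call there, at -0.20 (limma adjusted p = 0.203).

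A direct test of the difference between the sets passed for 1450 genes, 9.81% of all, and for 940 without the doubtful array. It gave a higher change in the time course for 17 of 26 actin genes, 11 of 17 simple epithelium genes and 8 of 13 annexins and S100 genes. Without the doubtful array these were 15, 10 and 6, beside 6.15% of all genes with every array, and none of these lists had a lower change. Their medians were 0.88, 0.56 and 0.76 here and 0.25, 0.44 and 0.41 in the repeat set. All 12 largest rises, chosen for their size here, were larger in the time course. Thbs1 differed by 2.15 ± 0.12 (limma adjusted p = 1.08e-08) and Cnn1 by 2.31 ± 0.08. For both, the controls as well as the knockdowns differed: Thbs1 averaged 8.11 and 11.23 in scramble and knockdown here and 9.61 and 10.58 in the repeat set. Whether the arrays of the sets were normalised together is not stated, which bears on such levels. The summed fibroblast marker signal was also higher in the repeat controls, at 3831 and 3760, and reached 5123 and 5132 in the repeat knockdown. Bright markers weigh most in such a sum. Mmp2 averaged 8.71 in scramble here and 9.95 in the repeat scramble, and Fstl1 8.15 and 9.40, against 7.31 and 7.71 for Col1a1. The part of fibroblast RNA in the differences between the sets was not tested. In contrast Ceacam1 (-2.34 here, -2.23 there), Jam2 (-1.25 and -1.19), Nr0b1 (-0.82 and -0.82), Sohlh2 (-1.40 and -1.35), Tgfb2 (1.19 and 1.27) and Igf1r (0.82 and 0.74) had differences that did not pass.

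**Figure D5:**
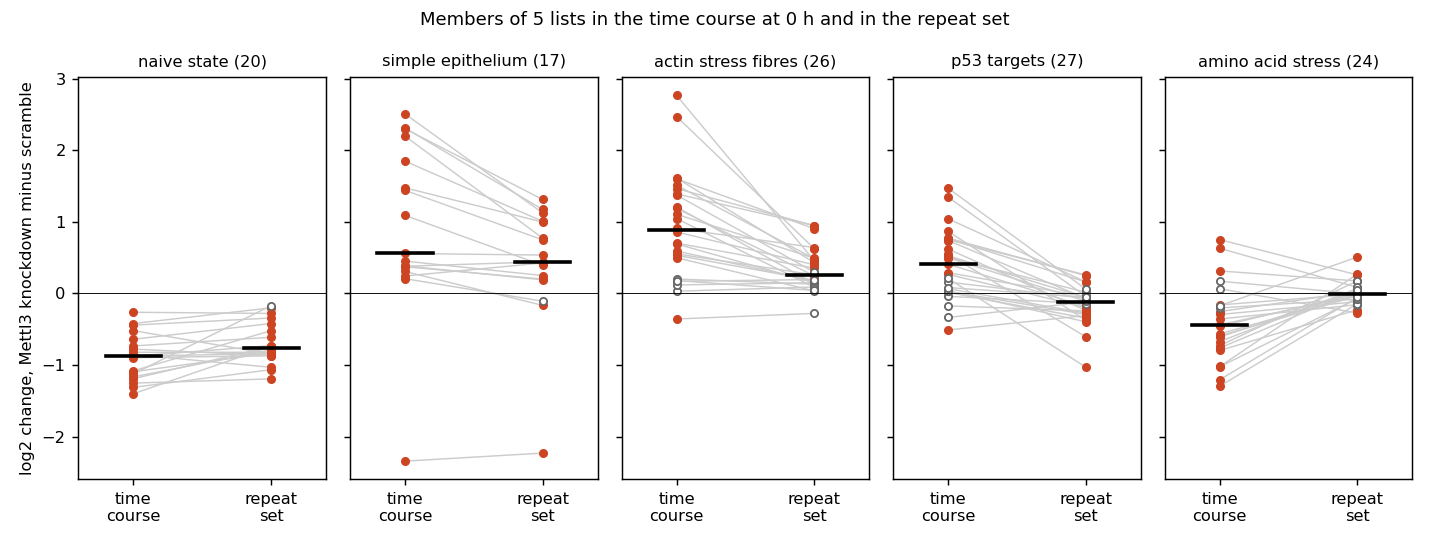
Log2 change after Mettl3 knockdown (vertical axis) of each tested member of 5 gene lists at 0 h of the time course and in the repeat set; lines join the same gene, filled points passed limma's adjusted p of 0.05, open points did not, and black bars are medians. Naive genes keep their median (-0.88 and -0.77), while actin genes drop from 0.88 to 0.25, p53 targets from 0.41 to -0.12, and amino acid stress genes go from -0.45 to -0.01.

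At the later points of the time course the knockdown was compared with scramble arrays of the same hour, and the change between hours was not tested. Against scramble at 4 h 2863 genes were higher (19.4%) and 2727 lower (18.4%), of which 2252 and 2043 were called the same way at 0 h, 79% and 74.5% of the 0 h calls and 78.7% and 74.9% of those at 4 h. At 8 h 3519 were higher (23.8%) and 2815 lower (19%), sharing 2280 and 1840 with 0 h, 80% and 67.1% of the 0 h calls and 64.8% and 65.4% of those at 8 h. Thbs1 stood 2.76 and 2.77 above scramble at 4 h and 8 h, Krt8 2.19 and 2.11, and Nanog changed by -0.84 and -0.88. Klf4 was nearer to its control at 8 h, at -0.37, than at 0 h, at -1.40. The naive list had 20, 19 and 18 members lower at 0 h, 4 h and 8 h.

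Mettl14 knockdown at 0 h shares the scramble arrays, so the knockdowns were compared directly. The direct test passed for 897 genes, 6.07% of all, of which 476 (3.22%) were higher and 421 (2.85%) lower after Mettl3 knockdown, and 3 (0.0203%) and 6 (0.0406%) of them differed at least 2-fold. Mettl14 itself was 1.60 ± 0.13 higher after Mettl3 knockdown. The probe set listed with Mettl3 and Tox4 was also lower after Mettl14 knockdown, at 70.5% of scramble. Its change was -0.50 ± 0.11 (limma adjusted p = 0.010 over every probe set). Stat3 differed by -0.61 (-0.95 against -0.34 after Mettl14 knockdown, limma adjusted p = 9.38e-05), and Stmn2 by -0.96 (-0.83 against 0.13). Apob, the apolipoprotein of visceral endoderm, rose less with Mettl3 (0.65 against 1.91, a difference of -1.26). Cnn1 (2.77 against 2.10) and Lefty2 (1.09 against 0.37) rose more, and Porcn (-1.09 against -0.56), Nr0b1 (-0.82 against -0.50) and Nr5a2 (-0.88 against -0.53) fell further. For Krt8, Sema6a, Ceacam1 and Esrrb the differences were 0.17, -0.09, 0.10 and -0.01 and did not pass.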

How the data were processed

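Each of 26 samples was measured on 1 array of the Affymetrix Mouse Gene 2.0 ST type, after purification of poly(A) RNA and labelling with biotin per the labels' protocols. The deposited values are log2 signals per probe set, made by the authors by RMA. The tool was oligo (version not given in the sources used here), per the submitters' processing notes. RMA equalises the distributions of the arrays, so changes are relative to the array as a whole. Values ran from 0.754 to 14.32.

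Of 41345 probe sets 23521 had exactly 1 symbol in the platform annotation, 1814 had several and 16010 were not listed. The probe set with the highest mean stood for a gene, which gave 22180 genes, and the 7393 with the lowest mean over all arrays were left out. Groups were compared in limma 3.58.1 with R 4.3.3 (lmFit and eBayes, two-sided). The 18 time course arrays were fitted together (9 residual degrees of freedom), the 8 repeat arrays apart (4), and the test between the sets used all 26 arrays. The median standard error of a change was 0.088, and the number of arrays limits the precision.

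Genes were named by rule: 12 rises and 12 falls of greatest size among genes that passed with no overlap of arrays, leaving out predicted and olfactory or vomeronasal receptor genes, in each list at most 5 tested members, taken by adjusted p, and Mettl3, Tox4, Mettl14, Wtap, Pou5f1, Nanog, Sox2, Klf4, Esrrb, Igfbp3, Cdkn1a, Myc, Actb and Gapdh. Other list members were named after their values were seen. The comparison, the lists and the genes were chosen with earlier results of these data known. Deviations of samples with the same replicate number correlated at r from -0.436 to 0.335 over 36 pairs of groups, above 0.1 in 12 of them and at -0.103 for the groups compared, so the numbers were not used as pairs. Motifs were searched in RefSeq promoter sequences, and the scripts were tested on simulated data. Alternatives covered the filter, the probe set chosen, the eBayes fit, array weights, the replicate block, scaling, the arrays sharing the spread, and leaving out each array.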

Additional observations from a re-analysis of the deposited data

Results flagged for a closer look

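The change after Mettl3 knockdown was compared between the time course at 0 h and the repeat set for 37 genes one by one. It differed for 21 by limma's test of the difference, beside 9.81% of all genes. Values are the time course change minus the repeat set change on the log2 scale. The 12 largest rises were all larger in the time course: Cnn1 by 2.31, Thbs1 by 2.15, Nefl by 2.04, Tagln by 1.84, Sema6a by 1.55, Anxa3 by 1.53, Fndc3c1 by 1.44, Krt8 by 1.38, Colec12 by 1.10, Fgf5 by 0.82 and Wls by 0.79. Cysltr1 gave 2.57, a size that is uncertain because its time course scramble mean of 4.63 lies below 6, the lowest mean of a gene tested. Igfbp3 and Cdkn1a, at 1.17 and 1.39, lay on the same side.

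Among the falls Mep1b (-1.63), Prkch (-1.17), Cubn (-0.96) and Zscan4e (-0.88) fell further in the time course, as did Klf4 (-0.66) and Nanog (-0.38). Morc1 was the reverse, at 0.65, having fallen further in the repeat set. The differences of Zscan4e and Morc1 lost their calls without repeat scramble replicate 2, the array whose description gives another time, at adjusted p = 0.0508 and 0.11 in limma. The genes were named for their size in the time course, so a larger change there is partly fixed by that choice.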

How the results depend on the processing

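Results were recomputed under 15 other settings. Of 234 named genes 220 passed, beside 37.8% of all genes, and 205 of these passed in every setting run. Most named genes were chosen for size or a small adjusted p in this comparison. Both counts are therefore largely fixed by that choice. With each array centred on the median signal of long-lived transcripts the counts moved from 2850 higher and 2744 lower to 1823 and 4543. In the repeat set they moved from 2642 and 2571 to 1133 and 6730. A second quantile normalisation gave 2756 and 3045 at 0 h, and 2564 and 2648 in the repeat set. The 897 genes that differed between Mettl3 and Mettl14 knockdown became 504 with no filter on dim genes, 500 with array weights, and 434 to 492 when 1 array was left out. The 1450 genes that differed between the sets became 940 to 1164 when 1 array was left out, lowest without the repeat scramble arrays. Leaving out 1 array gave 2258 to 2374 higher and 1969 to 2342 lower genes at 0 h, and 1893 to 1978 and 1777 to 2055 in the repeat set. The probe set listed with Mettl3 ranged from -2.01 to -1.84. With the replicate number as a block 2830 genes were higher and 2706 lower, and among named genes it ended the call of Scarna6 and no other. A crossed pairing of the numbers, chosen after seeing the data, gave 2443 and 2159. Changes that turned sign, none of which passed in any of these fits, were Tox4 (-0.016) and Gapdh (-0.077) under the centring and Wtap (-0.076 to 0.015) when 1 array was left out. The cause was not tested. Alternatives on the repeat set without its scramble replicate 2 were added after seeing the data.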
